A study of Mus musculus with 8 samples.

Results

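Imprinted genes are expressed mainly from one parental allele. The 40 examined here were taken by gene symbol from a list of mouse imprinted genes, out of 40840 genes in the count tables of 8 testes, and 39 were found under the listed symbol and Nespas under Gnasas1, of which RefSeq gives it as a synonym. The list was chosen with the values of Kcnq1ot1 known, since this noncoding RNA was among the genes that differed between the genotypes in these libraries, and its values are therefore described without a test. RNA was measured in whole testes of mice aged 12 days (P12) on a C57/BL6 background, 4 wild type and 4 Tra2b-cPEko, each genotype with replicates A to D. The wild type mice carried 1 floxed and 1 normal allele of the Tra2b poison exon (Tra2bPE fl/+), an exon whose inclusion stops production of the splicing factor Tra2β. The Tra2b-cPEko mice carried a floxed and a deleted allele together with the Vasa-Cre transgene (Tra2b fl/-;Vasa-Cre). Vasa-Cre is active only in germ cells, so the Sertoli, Leydig and myoid cells of these testes kept 1 floxed allele with the poison exon, and a whole testis sample mixes deleted and undeleted cells.

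The choice of parental allele is set by methylation laid down in the germ line, and the alleles stay marked in somatic cells of the offspring. In male germ cells the inherited marks are erased before birth and a paternal pattern is written on the few control regions that are methylated in sperm. Imprinted genes lie in clusters, in which a control region and often a long noncoding RNA act on several neighbours. Many of them code for regulators of fetal growth. With an inbred background, the reads of the maternal and paternal alleles cannot be told apart in these counts, so all values are the sum of both alleles and of all cell types.

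Promoter sequence is shown for Kcnq1ot1, around which the list was drawn, for Airn, another long antisense RNA of the paternal allele, and for Dlk1, which had the lowest log2 fold change of the imprinted genes tested. Each window runs from 250 bases before to 50 after the start in RefSeq on GRCm38.p6, is written 5′ to 3′ on the strand of the gene, and has matches to CCAAT (the box bound by the factor NF-Y) in capitals. These lie at chr7:143296498-143296797 (minus strand), chr17:12741061-12741360 (plus strand) and chr12:109452573-109452872 (plus strand).
Kcnq1ot1: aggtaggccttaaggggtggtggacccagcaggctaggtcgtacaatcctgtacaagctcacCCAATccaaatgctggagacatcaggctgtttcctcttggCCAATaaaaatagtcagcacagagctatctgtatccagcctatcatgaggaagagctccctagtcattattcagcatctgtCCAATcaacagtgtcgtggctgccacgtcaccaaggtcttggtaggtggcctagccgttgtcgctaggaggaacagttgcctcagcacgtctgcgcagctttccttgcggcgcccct
Airn: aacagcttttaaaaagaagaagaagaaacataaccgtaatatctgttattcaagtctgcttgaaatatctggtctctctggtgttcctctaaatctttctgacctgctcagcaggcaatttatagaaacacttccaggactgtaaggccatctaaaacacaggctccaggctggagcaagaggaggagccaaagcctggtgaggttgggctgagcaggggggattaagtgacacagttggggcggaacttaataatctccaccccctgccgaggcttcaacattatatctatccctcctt
Dlk1: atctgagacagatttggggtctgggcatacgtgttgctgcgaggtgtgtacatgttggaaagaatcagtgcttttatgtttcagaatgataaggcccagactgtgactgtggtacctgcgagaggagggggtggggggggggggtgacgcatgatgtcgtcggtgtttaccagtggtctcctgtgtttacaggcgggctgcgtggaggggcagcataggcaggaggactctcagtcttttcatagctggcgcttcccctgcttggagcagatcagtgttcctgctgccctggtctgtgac
The Kcnq1ot1 window holds 3 matches to CCAAT, all on its own strand, as many as a window of its neighbour Ascl2, while those of Airn and Dlk1 hold none. Both strands were searched, and 37.4% of 32851 promoter windows of the same length held at least 1 match and 3.37% at least 3. The hexamer TGCCGC, the core bound by the imprint-protecting zinc finger protein Zfp57, was not found in these 3 windows and is present in 11.6% of all windows. Windows were found for 30 of the 40 genes, of which 12 have a match to CCAAT and 10 one to TGCCGC, with 3 of the latter in a window of Zdbf2. Kcnq1, Cdkn1c, H19, Rtl1, Nespas, Peg10, Sgce, Peg13, Trappc9 and Impact have none here.

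Depth and the makeup of the libraries bear on what follows. Each mouse gave 36757386 to 59101569 reads on genes, and the 40 imprinted genes took 0.279% to 0.304% of them. Tra2b itself (chromosome 16, GRCm39, 22063266 to 22084824) had 164 ± 8.93 CPM in wild type and 198 ± 8.49 CPM in Tra2b-cPEko testes (counts per 1000000 of the TMM-scaled library, SD, n = 4 each), but its counts do not separate the poison exon and so do not check the genotype labels. Tra2b-cPEko C stands apart from the other mice. Its 7 epididymal epithelium genes, among them Crisp1 and Spink8, summed to 212 CPM, against 0.0508 to 0.142 CPM in wild type mice and 0.109 to 0.802 CPM in the other 3 Tra2b-cPEko mice, and its 5 adipocyte genes to 16.5 CPM, against 7.76 to 11.7 CPM in the other 7 mice. Wild type A and B also differed from the rest, with 477 and 512 CPM for the sum of 10 genes of pachytene spermatocytes, against 257 and 304 CPM in wild type C and D and 282 to 368 CPM in the Tra2b-cPEko mice. Both were highest, too, for 12 genes of leptotene and zygotene spermatocytes, at 1961 and 1718 CPM, against 1455 to 1631 CPM in the other mice. For 6 red blood cell genes they were at 97.9 and 138 CPM, against 25.2 to 82.5 CPM. Reads counted outside genes also differed, making up 12.4% to 12.8% of all reads in wild type and 13.2% to 13.6% in Tra2b-cPEko mice, with no overlap.

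Of the 40 imprinted genes, 38 had enough reads to be tested. Rtl1, a retrotransposon-derived gene of the Dlk1 cluster, had 7, 6, 12 and 10 reads in the wild type and 0, 3, 2 and 4 reads in the Tra2b-cPEko mice A to D, and Snrpn, which codes for a protein of the spliceosome, had between 0 and 2 reads in each mouse. By edgeR's quasi-likelihood test at an adjusted p under 0.05 (method of Benjamini and Hochberg, over all genes), 1 of the 38 was called, Kcnq1ot1, for which the list was drawn. Over all 19104 genes tested the share called was 0.157%, and nothing is read from the comparison because the call is what drew the list. Apart from Kcnq1ot1, 7 of the other 37 had an unadjusted p under 0.05 (4 higher and 3 lower in Tra2b-cPEko testes), against 15.3% of all genes. Counting Kcnq1ot1, the 4 values of one genotype lay entirely above those of the other in 4 of the 38 genes tested, against 8.54% of all genes tested. These were Kcnq1ot1, Peg10 and Impact, higher in Tra2b-cPEko testes, and Dlk1, lower, and for Impact the direction turned when libraries were scaled to the reads outside genes. The untested Rtl1, at 12 reads or fewer, is not in this count and was lower in every Tra2b-cPEko mouse. DESeq2 called Dlk1 and Peg10 besides Kcnq1ot1, against 2.79% of the 18149 genes to which it gave an adjusted p. Leaving out wild type A or B, or Tra2b-cPEko C or D, took the edgeR count of imprinted genes to 0, and leaving out Tra2b-cPEko B took it to 3, so that the count depends on single mice.

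The median log2 fold change (Tra2b-cPEko minus wild type) of the 38 genes was 0.05, against -0.00 over all genes tested, and 23 were positive and 15 negative. The median size of the change was 0.13 on the log2 scale, against 0.09 over all genes. The imprinted genes thus lay on either side of 0. When libraries were scaled to the reads outside genes, an alternative chosen after these data were seen, the log2 fold change of the median gene fell to -0.13 and 11 imprinted genes were positive and 27 negative. Their median relative to that of all genes was 0.05 under both scalings. On that scale edgeR called 7 of the 38 imprinted genes and 21.7% of all genes. The 7 were Kcnq1ot1, Dlk1 at a log2 fold change of -0.53 (adjusted p = 0.0192), Commd1 at -0.39 (0.0101), Cdkn1c at -0.32 (0.0166), Mest at -0.27 (0.0256), Trappc9 at -0.25 (0.0226) and Ndn at -0.20 (0.0372). By the allele usually expressed, the median log2 fold change was 0.08 for 21 paternally expressed genes, 0.03 for 12 maternally expressed genes and 0.05 for 5 genes with mixed or tissue-dependent imprinting. The biological coefficient of variation over all genes was 9.56%.

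**Figure D1:**
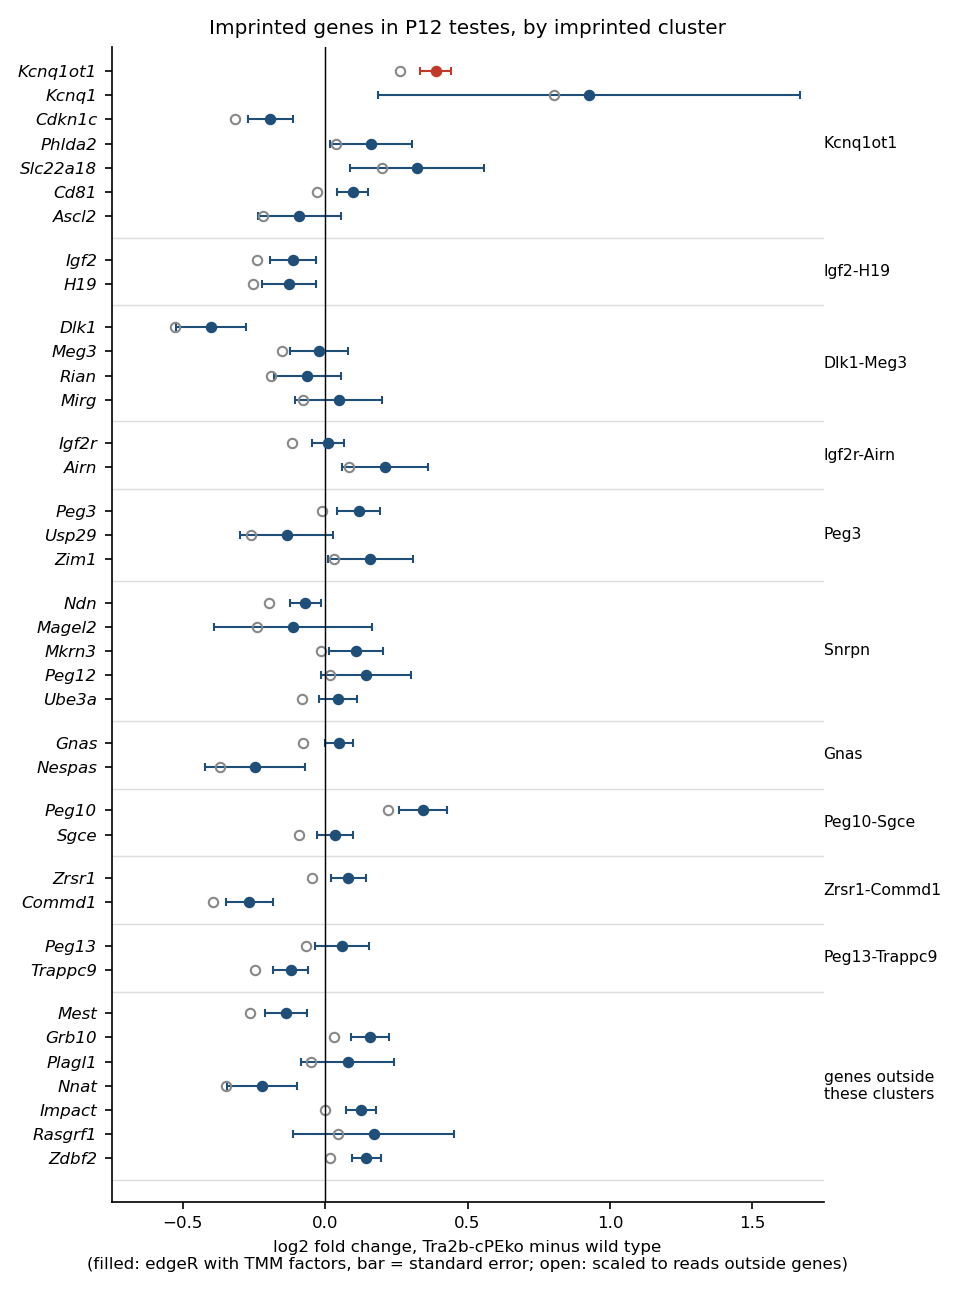
Log2 fold change (horizontal axis, Tra2b-cPEko minus wild type, n = 4 mice each) of the 38 imprinted genes tested, one gene per line, grouped by cluster. Filled points are edgeR estimates with TMM factors and bars their standard errors, open points are the same with libraries scaled to the reads outside genes, which moves the median of all genes to -0.13 and turns 12 genes from positive to negative. Kcnq1ot1 (red) is at 0.39, Dlk1 at -0.40, and Kcnq1, at 0.93, has the widest bar.

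Kcnq1ot1 is transcribed from within Kcnq1 on the opposite strand, normally from the paternal allele, and in other tissues silences neighbouring genes on that chromosome. Its place is chromosome 7, 142731402 to 142850327 of GRCm39, and GENCODE vM39 gives it 93852 exon bases, of which 0.889% lie under exons of Kcnq1. Its level was 24.4, 24.5, 25.5 and 24.3 CPM in wild type mice A to D and 30.0, 33.6, 33.7 and 31.9 CPM in Tra2b-cPEko mice A to D, from 1037 to 1575 reads. The wild type mice thus lay close together and below every Tra2b-cPEko mouse. The means were 24.7 ± 0.519 and 32.3 ± 1.73 CPM (SD, n = 4 each), a 1.31-fold difference and a log2 fold change of 0.39 (standard error 0.05). With 1 mouse left out at a time the log2 fold change was between 0.36 and 0.42, and 4 of these 8 fits no longer called it. In whole testis, fewer or more cells of a type and less or more RNA per cell cannot be told apart, here and for every gene that follows. Per kilobase of exon, Kcnq1ot1 was at 0.263 CPM in wild type testes, in place 30 of the 39 imprinted genes with an exon length.

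The share of reads outside genes moved with Kcnq1ot1, since both were higher in every Tra2b-cPEko mouse. Scaled to those reads, Kcnq1ot1 was at 131, 134, 140.3 and 131 reads per 1000000 in the wild type and 153, 165, 168 and 157 per 1000000 in the Tra2b-cPEko mice A to D. On this scale, too, every Tra2b-cPEko mouse lay above every wild type mouse, with means of 134 ± 4.60 and 161 ± 6.84 reads per 1000000 outside reads (SD, n = 4 each), a 1.20-fold difference. Among 6 other long noncoding RNAs kept mainly in the nucleus, the summed level was 711 to 776 CPM in wild type and 869 to 1057 CPM in Tra2b-cPEko mice, and 1 of the 5 tested was called, Malat1, at 502 ± 33.3 and 722 ± 92.9 CPM (SD, n = 4 each). Without Malat1 the other 5 summed to 224 to 242 CPM and 222 to 252 CPM, which overlapped, and the median log2 fold change of the list was 0.07. The part of these differences in the result for Kcnq1ot1 was not tested.

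**Figure D2:**
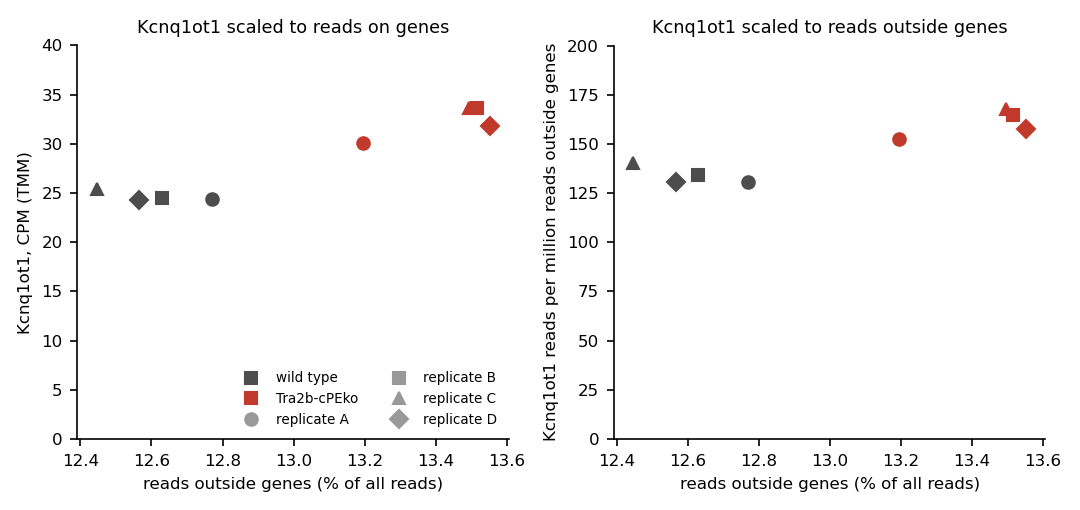
Kcnq1ot1 in each mouse against the share of all reads counted outside genes (horizontal axis, percent), as CPM on the left and as reads per 1000000 reads outside genes on the right, wild type in grey and Tra2b-cPEko in red. On both vertical scales the 4 Tra2b-cPEko mice lie above the 4 wild type mice, by 1.31-fold on the left and 1.20-fold on the right.

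The other 6 genes of the Kcnq1ot1 cluster that are on the list are usually expressed from the maternal allele, and none was called. Cdkn1c, a cyclin-dependent kinase inhibitor that holds back cell division, had 17.4, 18.4, 16.9 and 19.99 CPM in the wild type and 14.7, 16.3, 14.9 and 17.8 CPM in the Tra2b-cPEko mice A to D. The genotypes overlapped, with means of 18.2 ± 1.37 and 15.9 ± 1.47 CPM (SD, n = 4 each) and a log2 fold change of -0.19 (standard error 0.08, edgeR adjusted p = 0.284, and -0.32 with adjusted p = 0.0166 when scaled to reads outside genes). Cd81, a tetraspanin of the cell surface and the most abundant gene of the cluster, had 136, 149, 153 and 153 CPM in the wild type and 162, 153, 168 and 147 CPM in the Tra2b-cPEko mice. These values overlapped, and the log2 fold change of 0.10 (edgeR adjusted p = 0.41) became -0.03 on the scale of reads outside genes.

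The remaining 4 genes of the cluster were weakly expressed. Ascl2, a transcription factor of the trophoblast, was at 6.64 ± 1.25 CPM in wild type and 6.26 ± 1.02 CPM in Tra2b-cPEko testes (SD, n = 4 each). Phlda2, which limits placental growth, was at 1.35 ± 0.159 and 1.51 ± 0.108 CPM, and the transporter gene Slc22a18 at 0.354 ± 0.0654 and 0.435 ± 0.0757 CPM. All 3 overlapped between the genotypes, with edgeR adjusted p between 0.54 and 0.811. Kcnq1, a subunit of a potassium channel, had 0.588, 0.355, 0.3997 and 0.728 CPM in the wild type and 0.381, 0.409, 2.69 and 0.436 CPM in the Tra2b-cPEko mice A to D. Its highest value belonged to Tra2b-cPEko C, the mouse with the epididymal transcripts, and the other 3 Tra2b-cPEko mice lay within the wild type range. The log2 fold change of Kcnq1 was 0.93 (standard error 0.74, edgeR adjusted p = 0.589) with this mouse and -0.37 (edgeR adjusted p = 0.686) without it. Exons of Kcnq1ot1 and of another gene on the opposite strand cover 23.5% of the exon bases of Kcnq1, and whether the counting used the strand is not given in the sources used here. Kcnq1ot1 itself did not stand out in Tra2b-cPEko C, at 33.7 CPM there and 33.6 CPM in Tra2b-cPEko B.

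Of 10 further genes around this cluster, 8 were tested, none was called, and their median log2 fold change was -0.07. Nap1l4, a histone chaperone gene, was the only 1 of them without overlap, at 198 ± 4.82 CPM in wild type and 187 ± 2.203 CPM in Tra2b-cPEko testes (SD, n = 4 each, log2 fold change -0.08, edgeR adjusted p = 0.309). Cdkn1c starts 164 kb from the start of Kcnq1ot1.

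**Figure D3:**
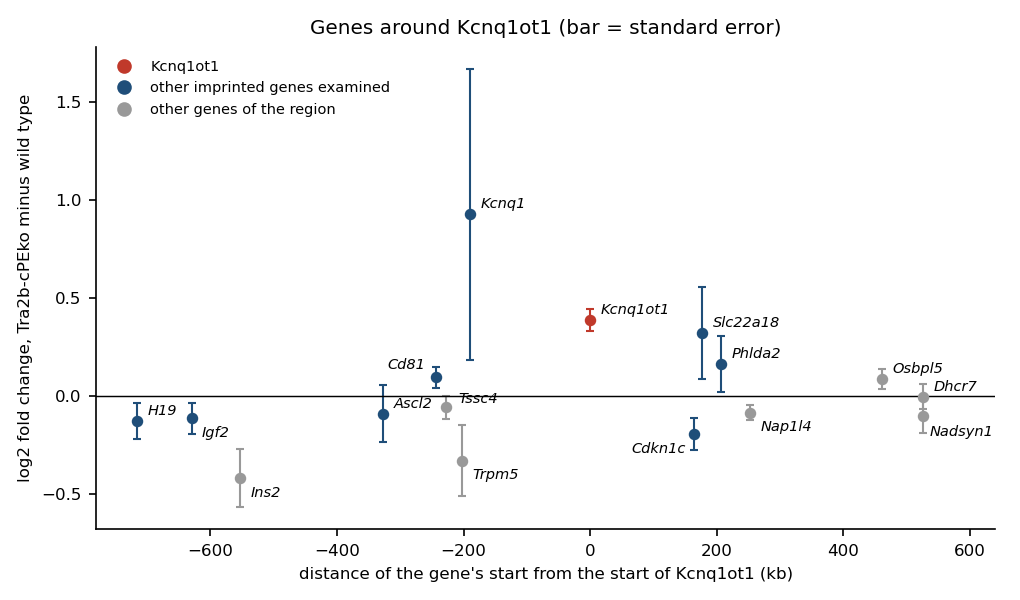
Log2 fold change (vertical axis, Tra2b-cPEko minus wild type, bars are standard errors, n = 4 mice each) of the genes around Kcnq1ot1 that were tested and placed by name, against the distance of each gene's start from that of Kcnq1ot1 (horizontal axis, kb). Cars, which was tested (log2 fold change -0.03), had no position under that name and is not drawn. Kcnq1ot1 (red) is at 0.39, Cdkn1c at -0.19 and Kcnq1, at 0.93 through a single mouse, at -0.37 without it. Cd81 turns from 0.10 to -0.03 when scaled to reads outside genes.

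Farther along the same chromosome lies the pair of Igf2, a fetal growth factor of the paternal allele, and H19, a maternal noncoding RNA. Igf2 had 114, 139, 137 and 125 CPM in the wild type and 118, 138, 110.5 and 111 CPM in the Tra2b-cPEko mice A to D, which overlapped (log2 fold change -0.11, edgeR adjusted p = 0.528). H19 was at 108 ± 13.5 CPM and 99.2 ± 9.72 CPM (SD, n = 4 each, log2 fold change -0.13, edgeR adjusted p = 0.547). The ratio of Igf2 to H19 reads overlapped between the genotypes, at 0.26 ± 0.19 in wild type and at 0.26 ± 0.05 in Tra2b-cPEko mice on the log2 scale (SD, n = 4 each).

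In the Dlk1-Meg3 cluster on chromosome 12, the paternal allele gives the protein-coding Dlk1 and Rtl1 and the maternal allele the noncoding Meg3, Rian and Mirg, which carry many small RNAs. Dlk1, a transmembrane protein with repeats like those of epidermal growth factor that restrains differentiation, lies from 109418749 to 109429262 of GRCm39. It had 168, 176, 159 and 166 CPM in the wild type and 127, 158, 98.5 and 123 CPM in the Tra2b-cPEko mice A to D. The genotypes did not overlap, though Tra2b-cPEko B came within 2 CPM of the lowest wild type mouse, and the Tra2b-cPEko mice were the more spread, with a coefficient of variation of 19.1% against 4.11%. The means were 167 ± 6.88 and 127 ± 24.2 CPM (SD, n = 4 each), and the level fell by 24.3% (log2 fold change -0.40, standard error 0.12). This decrease did not pass the edgeR test (adjusted p = 0.204) and passed that of DESeq2 (adjusted p = 0.0169), and without Tra2b-cPEko B it passed the edgeR test (log2 fold change -0.53, adjusted p = 0.03).

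Meg3, the gene of this cluster with the highest mean CPM over all 8 mice, had 146, 165, 170.4 and 150.4 CPM in the wild type and 147, 192, 139 and 143 CPM in the Tra2b-cPEko mice A to D. Tra2b-cPEko B was highest of all 8 mice and the other 3 lay near or below the lowest wild type mouse, with a log2 fold change of -0.02 (edgeR adjusted p = 0.942). Rian was at 60.2 ± 5.70 and 57.7 ± 10.1 CPM and Mirg at 2.34 ± 0.326 and 2.42 ± 0.439 CPM in wild type and Tra2b-cPEko testes (SD, n = 4 each), again with the highest value in Tra2b-cPEko B. The ratio of Dlk1 to Meg3 reads within a mouse, which no scaling can move, ran from -0.10 to 0.21 on the log2 scale in wild type and from -0.50 to -0.21 in Tra2b-cPEko mice. It was lower in every Tra2b-cPEko mouse, B included, by 0.39 on average, while the ratio of Rian to Meg3 overlapped (-1.39 ± 0.14 against -1.43 ± 0.04, SD, n = 4 each).

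The sum of the Leydig cell genes was also highest in Tra2b-cPEko B, the mouse highest for the maternal genes of this cluster. The 9 genes, which include Star and the steroid enzyme gene Cyp17a1, summed to 671, 873, 642 and 731 CPM in Tra2b-cPEko A to D and to 635 to 676 CPM in wild type mice. The order of Dlk1 among the Tra2b-cPEko mice was the same at its ends, with B highest and C lowest. The single Leydig cell genes did not all follow, and Hsd3b6, at 12.8 CPM, was lowest of the Tra2b-cPEko mice in B. Red blood cell genes were likewise highest of the Tra2b-cPEko mice in B, at 49.8, 82.5, 47.8 and 25.2 CPM in A to D. The Sertoli, peritubular, endothelial, macrophage and adipocyte lists did not peak in B. Sertoli cell genes summed to 6834, 6189, 6192 and 6642 CPM in Tra2b-cPEko A to D. Peritubular, endothelial and macrophage sums were highest of the Tra2b-cPEko mice in C, the endothelial sum at 214 CPM against 212 CPM in B. Across the list, Tra2b-cPEko B held the highest value of all 8 mice in 10 of the 38 genes tested, or 26.3%, against 9.81% of all genes. Wild type B held the lowest value in 13 of the 38, against 18.3% of all genes. The part of the somatic cells in these values was not tested.

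**Figure D4:**
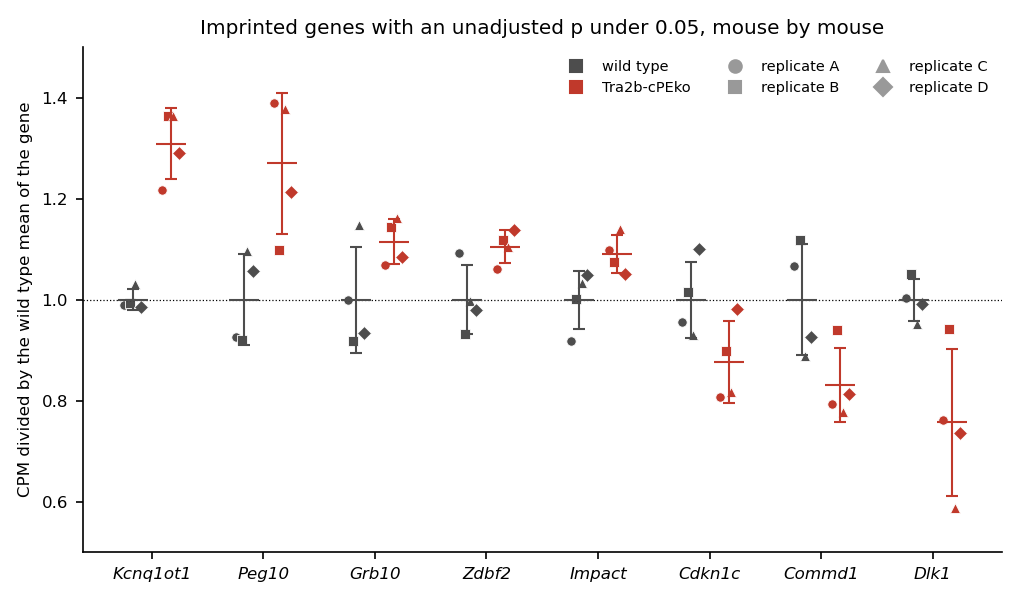
CPM of each mouse divided by the wild type mean of the gene (vertical axis) for Kcnq1ot1, chosen by its values, and the 7 other imprinted genes with an unadjusted p under 0.05. Grey marks are wild type and red marks Tra2b-cPEko mice, the marker shape gives the replicate letter, and lines give the mean and SD of 4 mice. The genotypes separate in Kcnq1ot1, Peg10, Impact and Dlk1 and overlap in the other 4, and scaling to reads outside genes turns Impact from 0.13 to -0.00 on the log2 scale.

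Peg10 and Sgce start next to each other on chromosome 6 and are transcribed in opposite directions, both from the paternal allele. Peg10, a retrotransposon-derived gene needed in the placenta, lies from 4747306 to 4760517 of GRCm39 and had 198, 197, 235 and 226 CPM in the wild type and 297, 235, 295 and 259.7 CPM in the Tra2b-cPEko mice A to D. The genotypes were separated by less than 1 CPM, between wild type C and Tra2b-cPEko B. The means were 214 ± 19.3 and 272 ± 29.9 CPM (SD, n = 4 each), a 1.27-fold difference (log2 fold change 0.34, standard error 0.08), which passed the DESeq2 test (adjusted p = 0.00851) and not that of edgeR (adjusted p = 0.122). Without Tra2b-cPEko B the edgeR adjusted p was 0.0408. The lower wild type values were those of A and B, the mice highest for the pachytene, the leptotene and zygotene, and the red blood cell lists. The log2 fold change was 0.31 without A and 0.31 without B, and the part of those cells was not tested. Sgce, which codes for a sarcoglycan of the cell membrane, was at 28.2 ± 2.14 CPM in wild type and 28.9 ± 0.997 CPM in Tra2b-cPEko testes (SD, n = 4 each), with a log2 fold change of 0.03 (edgeR adjusted p = 0.837). The ratio of Peg10 to Sgce reads nevertheless overlapped, at 2.92 ± 0.18 and 3.23 ± 0.20 on the log2 scale (SD, n = 4 each).

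The Igf2r-Airn cluster on chromosome 17 has the same layout as that of Kcnq1ot1, with the antisense noncoding Airn from the paternal allele and Igf2r, the receptor that carries Igf2 to lysosomes, from the maternal one. Igf2r had 184, 159, 186 and 173 CPM in the wild type and 167, 189, 179.6 and 172 CPM in the Tra2b-cPEko mice A to D. These ranges overlapped (log2 fold change 0.01, edgeR adjusted p = 0.949), and on the scale of reads outside genes the log2 fold change was -0.12 (adjusted p = 0.138). Airn was at 2.24 ± 0.427 and 2.59 ± 0.199 CPM (SD, n = 4 each) from 70 to 149 reads, with a log2 fold change of 0.21 (standard error 0.15, edgeR adjusted p = 0.535). The ratio of Kcnq1ot1 to Airn reads overlapped between the genotypes, at 3.49 ± 0.29 in wild type and at 3.64 ± 0.08 in Tra2b-cPEko mice on the log2 scale (SD, n = 4 each).

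The Peg3 cluster, at the other end of chromosome 7, holds zinc finger genes. Peg3, from the paternal allele, had 194, 175, 223 and 203 CPM in the wild type and 199.99, 236, 222 and 204 CPM in the Tra2b-cPEko mice A to D, which overlapped (log2 fold change 0.12, edgeR adjusted p = 0.481, and -0.01 when scaled to reads outside genes). The deubiquitinase gene Usp29, which starts next to Peg3, was at 2.49 ± 0.539 and 2.28 ± 0.211 CPM, and the maternal Zim1 at 27.6 ± 4.41 and 30.9 ± 5.93 CPM (SD, n = 4 each). For all 3 genes of this cluster the genotypes overlapped, with edgeR adjusted p between 0.481 and 0.731.

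In the Snrpn cluster, the region of the Prader-Willi and Angelman syndromes, nearly all reads fell on genes other than Snrpn. Snrpn had 0 to 2 reads in each mouse, and in GENCODE exons of Snurf on the same strand cover 2.30% of its exon bases. The methods name an NCBI annotation for the processing, so this overlap need not be the one met in the counting. Whether reads shared with Snurf were set aside as ambiguous was not tested. Ube3a, a ubiquitin ligase that is imprinted only in neurons, had 142, 127, 158 and 153 CPM in the wild type and 137, 154, 157 and 149.6 CPM in the Tra2b-cPEko mice A to D. These overlapped (log2 fold change 0.05, edgeR adjusted p = 0.786, and -0.08 when scaled to reads outside genes). Ndn, a growth-restraining member of the MAGE family, was at 63.5 ± 4.13 and 60.5 ± 2.76 CPM, and its relative Magel2 at 0.588 ± 0.177 and 0.554 ± 0.189 CPM (SD, n = 4 each). Mkrn3, a makorin ring finger gene linked to the timing of puberty, was at 7.21 ± 0.737 and 7.77 ± 0.397 CPM, and Peg12 at 2.66 ± 0.431 and 2.96 ± 0.512 CPM (SD, n = 4 each). None of the 5 genes tested here was without overlap, and their edgeR adjusted p lay between 0.571 and 0.883.

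Gnas, which codes for the stimulatory G protein alpha subunit on chromosome 2, was the most abundant imprinted gene. It had 659, 741, 681 and 691 CPM in the wild type and 750.0, 669.8, 727 and 718 CPM in the Tra2b-cPEko mice A to D, and also led the list per kilobase of exon, at 57.7 CPM per kb in wild type testes. Its ranges overlapped (log2 fold change 0.05, edgeR adjusted p = 0.676, and -0.08 when scaled to reads outside genes). Nespas, the paternal antisense RNA of this cluster, was at 4.44 ± 1.19 and 3.74 ± 0.482 CPM (SD, n = 4 each, log2 fold change -0.25, edgeR adjusted p = 0.53). Its highest values were also those of wild type A and B, at 4.91 and 5.91 CPM, and the log2 fold change was -0.08 without wild type B. Exons of Gnas on the other strand cover 17.9% of its exon bases.

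Commd1 and Zrsr1 lie on chromosome 11, where the splicing factor gene Zrsr1, from the paternal allele, sits within an intron of Commd1, a regulator of copper and of NF-κB. Commd1 had 38.6, 40.5, 32.1 and 33.5 CPM in the wild type and 28.7, 34.0, 28.2 and 29.4 CPM in the Tra2b-cPEko mice A to D. Only Tra2b-cPEko B reached into the wild type range. The highest values were those of wild type A and B, the mice highest for the pachytene, the leptotene and zygotene, and the red blood cell lists. The means were 36.2 ± 3.98 and 30.1 ± 2.66 CPM (SD, n = 4 each), with a log2 fold change of -0.27 (standard error 0.08, edgeR adjusted p = 0.182), or -0.24 without wild type A and -0.21 without wild type B. Zrsr1 was at 30.8 ± 2.19 and 32.6 ± 1.56 CPM (SD, n = 4 each), with a log2 fold change of 0.08 that became -0.05 on the scale of reads outside genes. Within a mouse, the ratio of Commd1 to Zrsr1 reads ran from 0.13 to 0.40 in wild type and from -0.21 to 0.01 in Tra2b-cPEko mice on the log2 scale. This ratio, like that of Dlk1 to Meg3, was lower in all 4 Tra2b-cPEko mice.

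Peg13, a noncoding RNA of the paternal allele, lies within the trafficking gene Trappc9 on chromosome 15, and exons of Trappc9 on the same strand cover 27.4% of its exon bases. Peg13 was at 14.9 ± 1.78 and 15.5 ± 1.54 CPM and Trappc9 at 51.6 ± 3.94 and 47.4 ± 2.56 CPM (SD, n = 4 each). Both overlapped, with edgeR adjusted p of 0.814 and 0.364.

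Across the 11 pairs of genes for which the ratio within a mouse was computed, 3 separated the genotypes. Apart from those of Dlk1 to Meg3 and Commd1 to Zrsr1, this was the ratio of Kcnq1ot1 to Cdkn1c, which ran from 0.28 to 0.59 in wild type and from 0.84 to 1.18 in Tra2b-cPEko mice on the log2 scale, and which contains the values for which Kcnq1ot1 was chosen. No test was made of these ratios.

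**Figure D5:**
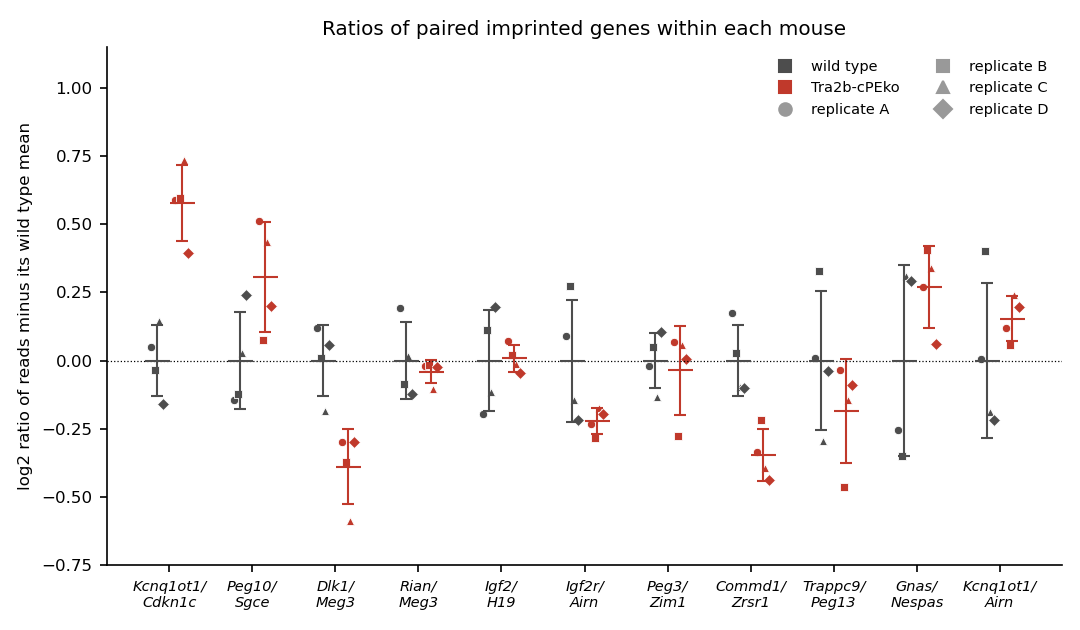
Log2 ratio of the reads of 2 imprinted genes within each mouse, minus the wild type mean of that ratio (vertical axis), for 11 pairs (horizontal axis). Grey marks are wild type and red marks Tra2b-cPEko mice, the marker shape gives the replicate letter, and lines give the mean and SD of 4 mice. The ratio of Kcnq1ot1 to Cdkn1c lies higher, and those of Dlk1 to Meg3 and Commd1 to Zrsr1 lower, in all 4 Tra2b-cPEko mice, and the other 8 overlap.

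Of the 7 genes outside these clusters, 3 had an unadjusted p under 0.05, all with a higher mean in Tra2b-cPEko testes. Zdbf2, a zinc finger gene of the paternal allele, had 113, 96.2, 103 and 101 CPM in the wild type and 109.5, 115, 114 and 117 CPM in the Tra2b-cPEko mice A to D. Wild type A reached into the Tra2b-cPEko range, and the log2 fold change was 0.14 (standard error 0.05, edgeR adjusted p = 0.226). Grb10, an adaptor that dampens insulin signalling, had 106, 97.2, 122 and 98.8 CPM in the wild type and 113, 121, 123 and 115 CPM in the Tra2b-cPEko mice. Wild type C lay among the Tra2b-cPEko mice, and the log2 fold change was 0.16 (standard error 0.07, edgeR adjusted p = 0.287).

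Impact, an inhibitor of the kinase that senses amino acid shortage, had 34.6, 37.7, 38.9 and 39.5 CPM in the wild type and 41.4, 40.5, 42.9 and 39.7 CPM in the Tra2b-cPEko mice A to D. The genotypes did not overlap, by a margin of less than 1 CPM between the D mice, with a log2 fold change of 0.13 (standard error 0.05, edgeR adjusted p = 0.299). On the scale of reads outside genes the log2 fold changes of these 3 genes were 0.02 for Zdbf2, 0.03 for Grb10 and -0.00 for Impact.

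The other 4 single genes overlapped between the genotypes. The hydrolase-like Mest was at 27.0 ± 1.46 and 24.6 ± 2.58 CPM, and the zinc finger gene Plagl1, a regulator of other imprinted genes, at 67.8 ± 13.2 and 71.7 ± 12.1 CPM (SD, n = 4 each). Exons of Copg2 on the opposite strand cover 47.7% of the exon bases of Mest. Nnat, a small membrane protein gene, was at 6.14 ± 1.04 and 5.27 ± 0.373 CPM (SD, n = 4 each). Rasgrf1, an exchange factor for Ras, had 1.99, 1.37, 2.19 and 1.80 CPM in the wild type and 1.52, 1.63, 3.55 and 1.53 CPM in the Tra2b-cPEko mice A to D. As for Kcnq1, its highest value was that of Tra2b-cPEko C, and its log2 fold change was 0.17 (edgeR adjusted p = 0.818) with that mouse and -0.24 (edgeR adjusted p = 0.657) without it.

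Outside the 40 genes, edgeR called none of 33 further imprinted genes tested and DESeq2 called 1, Ago2 (log2 fold change 0.34, adjusted p = 0.046). Of the 33, 8 had an unadjusted edgeR p under 0.05, against 15.3% of all genes tested. The median log2 fold change of the 33 was 0.04, and Klf14 and Nap1l4 were without overlap, against 8.54% of all genes tested. Nap1l4 is also on the list of genes around the Kcnq1ot1 cluster, with which this list shares members. Klf14 was at 0.175 ± 0.0626 CPM in wild type and 0.258 ± 0.0279 CPM in Tra2b-cPEko testes (SD, n = 4 each, edgeR adjusted p = 0.428). The list of 26 regulators of imprints holds genes that write, read, protect or remove DNA methylation, and others such as Polycomb genes. Among them the median was -0.01 and 1 was called. This was Arid4a, a chromatin protein that has been tied to the imprint of the Snrpn region, at 68.3 ± 2.71 CPM in wild type and 84.3 ± 5.12 CPM in Tra2b-cPEko testes (SD, n = 4 each, log2 fold change 0.30, edgeR adjusted p = 0.0463). Ezh2, the methyltransferase of the Polycomb complex, was without overlap at 68.6 ± 5.44 and 62.1 ± 1.32 CPM (SD, n = 4 each, edgeR adjusted p = 0.258).

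Markers of the cell types of the testis give the setting for these values. The defining genes of Sertoli cells were high, with a sum of 6152 to 6616 CPM for 13 genes in wild type mice, and their median log2 fold change was -0.03, with Aard without overlap (941 ± 23.8 and 873 ± 62.1 CPM, SD, n = 4 each). The median was 0.40 for 9 Leydig cell genes (Lhcgr without overlap), 0.28 for 9 macrophage genes, 0.08 for 12 peritubular and stromal genes and 0.05 for 9 endothelial genes. edgeR called none of these genes, and DESeq2 called 2 of the Leydig list (Lhcgr and Hsd3b6) and 2 of the macrophage list (Csf1r and Cx3cr1). The Leydig list was mixed, with 6 positive and 3 negative log2 fold changes, the lowest at -0.54. Of its genes with an unadjusted edgeR p under 0.05, 2 were higher and 1 lower. All 9 macrophage genes had a positive log2 fold change, 6 of them with an unadjusted edgeR p under 0.05. In germ cells the median was -0.01 for 10 genes of undifferentiated spermatogonia and -0.10 for 8 of differentiating spermatogonia. It was -0.08 for 12 genes of leptotene and zygotene spermatocytes and -0.22 for the 8 pachytene genes tested, and the sums of both these lists were highest in wild type A and B. Among these, edgeR called Sohlh1, a transcription factor of spermatogonia (47.5 ± 3.02 and 37.4 ± 1.03 CPM, SD, n = 4 each, adjusted p = 0.0341), and Neurog3, Mei1 and Spata16 were also lower without overlap, with edgeR adjusted p between 0.101 and 0.13 and DESeq2 adjusted p between 0.00593 and 0.0291. Adipocyte genes summed to between 7.76 and 16.5 CPM, with the highest sum in Tra2b-cPEko C. Globin and other red blood cell genes summed to between 25.2 and 138 CPM, with the highest sums in wild type A and B. The part of these lists in the values of the imprinted genes was not tested.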

How the data were processed

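RNA was prepared from whole P12 testes with a stranded mRNA kit and sequenced in paired ends. The authors deposited raw counts of reads per gene for each mouse. The submitters' processing notes name HISAT2 2.2.1 and HTSeq 2.0.2, and the methods give GRCm39, Salmon and DESeq2. The tables end in 5 summary lines of the kind htseq-count writes, left out of library sizes and tests. They gave the reads outside genes and the ambiguous reads.

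edgeR 4.0.16 in R 4.3.3 was applied to the counts: filterByExpr (count 10, total 15), TMM factors, and the robust quasi-likelihood F-test of genotype with no other term, adjusted over 19104 genes. CPM are counts per 1000000 of the TMM-scaled library, and standard errors are the log2 fold change divided by the root of F. DESeq2 1.42.0, limma-voom (limma 3.58.1), RLE and upper-quartile factors, other filters (none, mean count of 50), no robust estimation, an adjusted p of 0.1, the replicate letter as a block, and fits without each mouse were alternatives. Scaling to reads outside genes was added after the data were seen. The fits were tested on simulated counts.

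The imprinted genes, the further lists (16 in all) and the tests were chosen with earlier results of these data known. All 40 genes are named by cluster, with the value of every mouse for those without overlap or with an unadjusted p under 0.05 and for the most abundant gene of 7 clusters. Genes of other lists are named where called or without overlap. Ago2, Hsd3b6, Csf1r and Cx3cr1, called by DESeq2 and not by edgeR, are named besides these and were chosen after their values were seen. Positions and exon overlaps are from GENCODE vM39 on GRCm39, in which Zrsr1 was not found by name. Promoter windows are from RefSeq on GRCm38.p6. The methods describe the mice as independent, and depth is given in the report. Pairs of libraries of 1 genotype differed by 6.20 to 19.0 times counting noise, so none was a copy. Of 67 genes wholly under exons of the opposite strand, 73.1% had reads, against 63.3% of 245 under exons of the same strand, which leaves the strand setting of the counting unsettled. Cars1, Zfp264 and Dnmt3c of the lists were not found by symbol. Python 3.11.15, matplotlib 3.10.9 and bedtools 2.31.1 were used.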

Additional observations from a re-analysis of the deposited data

Results flagged for a closer look

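In 80 groups of 4 mice (40 imprinted genes in each genotype), 7 had a mouse far from the other 3 by Dixon's ratio, where chance gives about 1 in 20, or 4. Of these, 3 concern Tra2b-cPEko B and are genes of the maternal allele, H19 (113.6 CPM, the highest of its genotype), Meg3 (192 CPM) and Mirg (3.08 CPM). In the same mouse the Leydig cell genes summed to 873 CPM, against 642 to 731 CPM in the other Tra2b-cPEko mice. The red blood cell genes summed to 82.5 CPM there, against 25.2 to 49.8 CPM. Another 2 concern Tra2b-cPEko C, the mouse with epididymal transcripts, Kcnq1 (2.69 CPM) and Rasgrf1 (3.55 CPM). The remaining 2 are Trappc9 in wild type B (57.5 CPM, the highest wild type value) and Nnat in Tra2b-cPEko D (4.71 CPM, the lowest).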

How the results depend on the processing

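Over 18 alternatives, 637 of 681 log2 fold changes of single imprinted genes kept their direction and side of the threshold, 30 reversed, 10 passed the threshold and 4, all of Kcnq1ot1, no longer did. The reversals came from leaving out a mouse (18) or from scaling to reads outside genes (12), and none from the other alternatives. Scaled to reads outside genes, chosen after the data were seen, 4149 genes were called over all genes, of which 176 were higher (25 of 30 with TMM factors), 7 imprinted genes were called, 7 were without overlap and their median was -0.079. The reversed log2 fold changes there were -0.030 for Cd81, -0.12 for Igf2r, -0.080 for Mirg, -0.0098 for Peg3, -0.016 for Mkrn3, -0.081 for Ube3a, -0.077 for Gnas, -0.092 for Sgce, -0.046 for Zrsr1, -0.069 for Peg13, -0.049 for Plagl1 and -0.00023 for Impact. The genes called over all genes numbered 58 with upper-quartile factors, 123 with no low-count filter, 14 with a mean count of at least 50, 507 with DESeq2, 11 with limma-voom, 12 with no robust estimation and 156 at an adjusted p under 0.1. DESeq2 called 3 imprinted genes and, on its scale, 2 were without overlap, as were 2 with no low-count filter. The cause of these differences between settings was not tested. The share of all genes without overlap was computed only with TMM factors, at 8.54%. Nothing is therefore read from the counts of imprinted genes without overlap in the other settings.

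With 1 mouse left out, 3 to 84 genes were called over all genes and 0 to 3 imprinted genes (0 without wild type A or B or Tra2b-cPEko C or D, 3 without Tra2b-cPEko B), and the imprinted median was between 0.01 and 0.08. Genes that reversed had log2 fold changes between -0.37 and 1.21 (Kcnq1), -0.24 and 0.30 (Rasgrf1), -0.34 and 0.096 (Magel2), -0.14 and 0.025 (Meg3), -0.19 and 0.0034 (Rian), -0.088 and 0.15 (Mirg), -0.033 and 0.038 (Igf2r), -0.011 and 0.088 (Ube3a), -0.043 and 0.21 (Plagl1), -0.019 and 0.069 (Sgce) and -0.0062 and 0.14 (Peg13). With the replicate letter as a block, 67 genes were called over all genes and 1 imprinted gene. The letters do not pair the mice: the correlations of same-lettered deviations were 0.03 (A), -0.14 (B), -0.04 (C) and 0.12 (D), and of the 4 letters only D had its own letter as its best match. Depth limits Rtl1, Snrpn, Slc22a18, Kcnq1, Magel2 and Phlda2, with at most 126 reads in a mouse.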
